A study of Mus musculus with 9 samples.

Results

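Expression of 10 genes for angiogenic growth factors and their co-receptors was followed in leg muscle of WT mice of the strain the labels write as c57b6l. The genes were taken as the rows of the gene tables whose symbol is Vegfa, Vegfb, Vegfc, Pgf, Angpt1, Angpt2, Nrp1, Nrp2, Fgf2 or Apln. All 10 were found among 55335 genes, and all 10 were among the 18259 genes that passed the filter on low counts. RNA was sequenced from 3 mice that received aspirin together with a peptide hydrogel (hydrogel libraries), 3 that received aspirin alone and 3 that were left untreated (controls). All 9 animals, controls included, had undergone a hindlimb model that is labelled with both suspension and ischaemia. Muscle without that model and hydrogel without aspirin were not analysed here, and the labels give no dose, age, sex or time after the procedure.

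These genes encode secreted signals by which hypoxic or injured muscle calls for new capillaries, and the neuropilin co-receptors that bind some of them. VEGF family ligands bind the receptor tyrosine kinases Flt1, Kdr and Flt4 on endothelial cells. Angiopoietins act on the receptor Tek to settle or loosen vessel walls, and basic FGF and apelin act through Fgfr1 and Aplnr. Muscle fibres themselves are a known source of Vegfa, and its transcription is raised by the hypoxia-inducible factors through a short DNA element.

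The promoters of Vegfa, Pgf and Fgf2 are shown because the hydrogel and aspirin libraries of these genes did not overlap in scaled counts. The same held for Angpt1, for which no promoter window was found. None of these genes passed the adjusted threshold in any comparison. Of all genes tested, 7.46% lay wholly higher and 8.75% wholly lower in hydrogel than in aspirin libraries. In FPKM Vegfa and Angpt1 overlapped, and with library size alone only 2 of the 10 did not overlap. The sequences were searched for a known core that hypoxia-inducible factors bind, ACGTG or GCGTG. RefSeq promoter windows on GRCm38.p6 run from 250 bases before a start site to 50 after it (the start being position 0), and 8 of the 10 genes matched 10 such windows, with none for Angpt1 and Angpt2. Sequences run 5′ to 3′ in the direction of the gene, and capitals mark the core on either strand (CACGT and CACGC are ACGTG and GCGTG read on the other strand). The upstream Vegfa start lies at chr17:46032328-46032627 and a downstream one at chr17:46025114-46025413, both on the minus strand. Pgf has 2 windows on the minus strand, of which the upstream one, at chr12:85177264-85177563, is shown. The other lies at chr12:85175933-85176232 and held neither core and no GC box. The Fgf2 window lies at chr3:37348403-37348702 on the plus strand.
Vegfa, upstream start: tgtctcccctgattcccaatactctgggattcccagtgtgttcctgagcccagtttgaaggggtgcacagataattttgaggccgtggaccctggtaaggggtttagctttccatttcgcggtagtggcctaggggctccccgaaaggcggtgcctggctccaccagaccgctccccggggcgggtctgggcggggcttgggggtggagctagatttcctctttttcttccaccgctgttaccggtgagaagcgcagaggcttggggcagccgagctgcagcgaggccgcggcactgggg
Vegfa, downstream start: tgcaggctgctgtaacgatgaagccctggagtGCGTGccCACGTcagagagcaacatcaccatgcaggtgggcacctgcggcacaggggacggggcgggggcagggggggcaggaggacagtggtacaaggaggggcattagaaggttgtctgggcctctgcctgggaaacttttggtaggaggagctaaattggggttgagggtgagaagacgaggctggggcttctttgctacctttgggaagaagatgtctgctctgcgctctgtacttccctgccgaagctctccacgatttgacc
Pgf, upstream start: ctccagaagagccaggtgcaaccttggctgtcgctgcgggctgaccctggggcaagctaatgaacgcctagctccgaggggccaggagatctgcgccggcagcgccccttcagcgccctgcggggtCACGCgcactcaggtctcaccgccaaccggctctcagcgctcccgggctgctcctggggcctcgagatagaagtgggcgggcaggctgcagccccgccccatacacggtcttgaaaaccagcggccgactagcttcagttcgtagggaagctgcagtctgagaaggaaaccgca
Fgf2: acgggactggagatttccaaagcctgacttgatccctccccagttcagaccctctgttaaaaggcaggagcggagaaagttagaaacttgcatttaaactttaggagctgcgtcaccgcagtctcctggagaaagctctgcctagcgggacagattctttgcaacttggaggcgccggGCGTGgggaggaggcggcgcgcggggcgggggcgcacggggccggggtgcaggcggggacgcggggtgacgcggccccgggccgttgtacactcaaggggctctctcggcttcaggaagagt
The upstream Vegfa window held neither core, and the downstream one held GCGTG at -218 and ACGTG at -211 (leftmost base). No window reaches beyond 250 bases upstream of its start, so this search could not find an element further out. That downstream window lies inside the annotated Vegfa gene, which runs from 46016993 to 46032369. Read in triplets from base 2 of that window, the letters up to and past both cores hold no stop codon. They can therefore be codons of an exon, and they are not taken here as the element that hypoxia-inducible factors use at Vegfa. Their place relative to the annotated exons was not tested. GCGTG lay at -124 in the upstream Pgf window, at no position in the downstream one, and at -72 in the Fgf2 window. Over the 10 matched windows of the gene set, ACGTG was found in 1 and GCGTG in 6, against 19.6% and 32.4% of all 32851 promoter windows when both strands were searched. The GC box GGGCGG was found in 9 of the 10 and in 35.7% of all windows. The AP-1 site TGANTCA was in 0 of the 10 and the E-box CAGCTG in 1, against 7.81% and 16.3%. ACGTG and GCGTG differ in 1 base, so no stretch on a strand counts under both, and a match describes the letters only.

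Vegfb and Vegfa were by far the most abundant of the 10 genes per unit of length. In FPKM, fragments per kilobase scaled by library size, Vegfb averaged 24.8 over the 9 libraries and Vegfa 21.1, and Vegfb was above Vegfa in 7 of the 9. Vegfa was above Nrp1, the next gene, in all 9. Nrp1 averaged 3.83 FPKM, Nrp2 3.15, Angpt1 2.29, Angpt2 1.90, Apln 1.49 and Fgf2 1.04 FPKM, and Vegfc and Pgf were lowest with 0.797 and 0.690 FPKM. Of these neighbours in the order, each was above the next in 5 to 8 of the 9 libraries, so their order was not the same in every animal. Pgf rested on 43 to 266 counts and Vegfc on 28 to 183 counts per library, while Vegfa had 1374 to 8581.

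The 9 libraries held 32197791 to 48170537 counts. On the first principal component, with 51.89% of the variance, 1 aspirin library (replicate 1) had a score of -152 and 1 hydrogel library (replicate 3) a score of 100.7, and the others ranged from -49.2 to 39.2. Markers of muscle fibres summed to 169490 to 314210 CPM in hydrogel libraries, 22390 to 249870 CPM in aspirin libraries and 104370 to 222980 CPM in controls, so that fibre transcripts were present throughout and lowest in Aspirin replicate 1. CPM are counts scaled to a common library size after TMM normalization (trimmed mean of M values). In bulk tissue, fewer cells of a type and less RNA per cell cannot be told apart. Comparisons below share groups, so their values for a gene are not independent of each other.

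By edgeR's quasi-likelihood test, no comparison put any of the 10 genes past the adjusted threshold of 0.05, and 0% of the 18259 genes passed it. DESeq2 and limma on FPKM also called 0 of the 10. Among all genes, DESeq2 called 102 in aspirin against control, 18 in aspirin with hydrogel against control and 156 in aspirin with hydrogel against aspirin. At an unadjusted p under 0.05 edgeR gave 0 of the 10 in aspirin against control, 1 in aspirin with hydrogel against control (Pgf) and 0 in aspirin with hydrogel against aspirin, where the shares of all genes were 6.48%, 3.92% and 10.9%. When 1 library was left out, these counts ranged from 0 to 4, from 0 to 1 and from 0 to 2 of the 10. Among all genes they then ranged from 618 to 2733, from 324 to 810 and from 900 to 4239. Fold changes below are therefore estimates with wide intervals, and the values of single libraries are given with them. Coordinates are those of GENCODE vM21 on mm10, where all 10 genes are annotated as protein-coding.

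**Figure D1:**
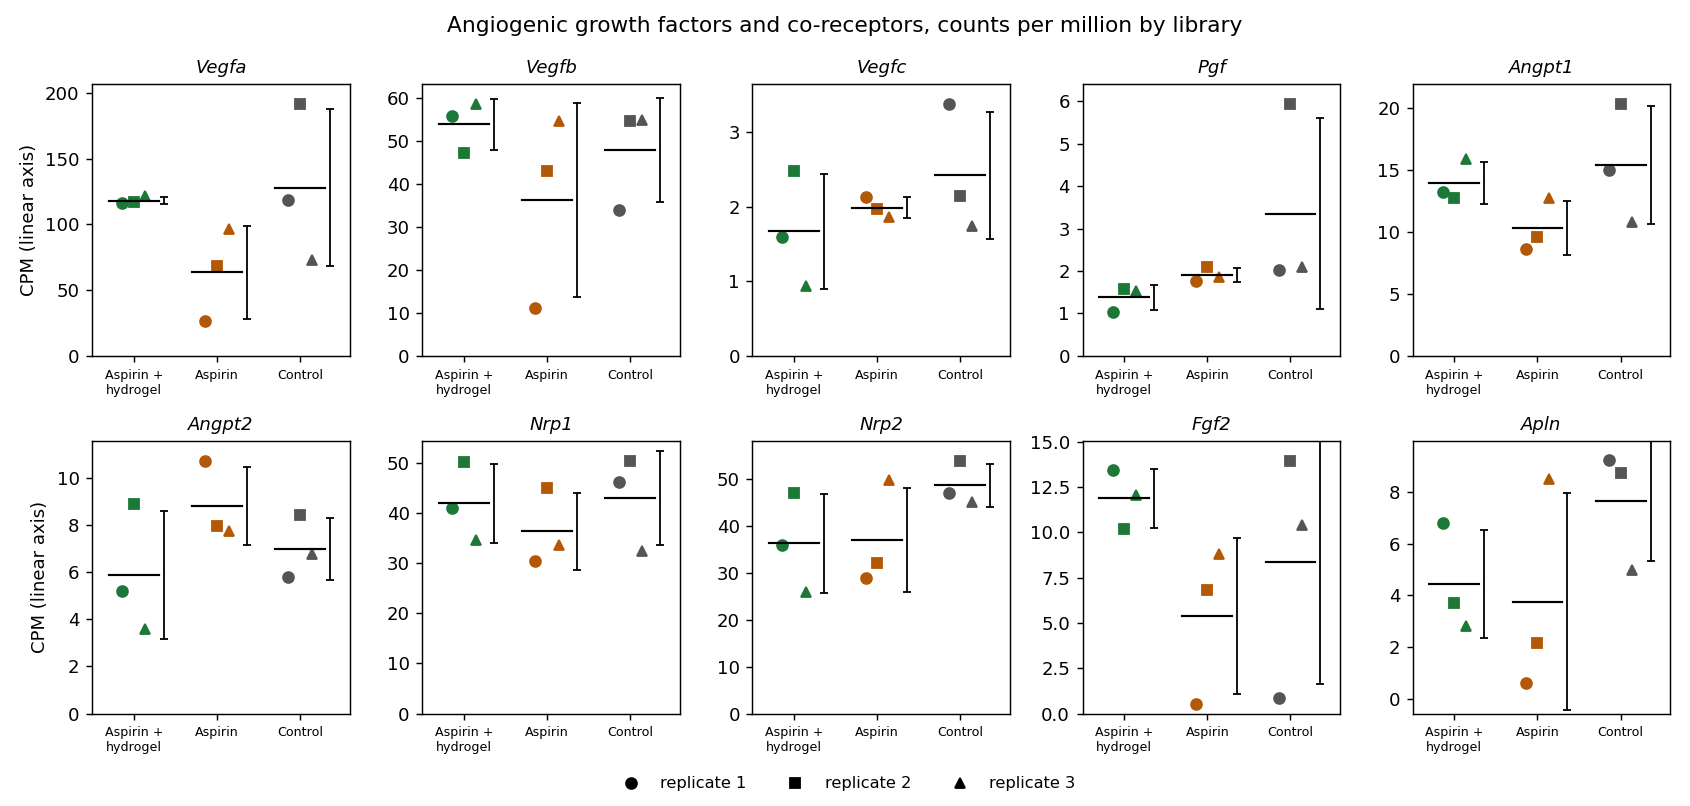
CPM of the 10 genes in each library on linear axes, with hydrogel libraries left, aspirin libraries in the middle and controls right. Horizontal lines are group means and the bars beside them 1 SD (n = 3). The hydrogel libraries of Vegfa sit between 116 and 121 CPM, above the 3 aspirin libraries, and the hydrogel libraries of Pgf lie below all others.

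Vegfa, the main driver of endothelial growth and permeability (ENSMUSG00000023951, mm10 chromosome 17, 46016993 to 46032369, minus strand), was the gene with the most even level in one group. It stood at 116, 117 and 121 CPM in hydrogel libraries, at 26.2, 68.2 and 96.3 CPM in aspirin libraries and at 119, 192 and 73.2 CPM in controls. All hydrogel libraries were above all aspirin libraries, while controls ranged on both sides of the hydrogel level. The coefficient of variation was 2.40% in hydrogel, 55.5% in aspirin and 46.7% in control libraries. In the deposited FPKM, which carry no TMM scaling, the hydrogel libraries were less even, with 23.4, 24.0 and 17.8 against 8.83, 15.6 and 17.9 in aspirin libraries, and the groups touched. The log2 fold change of aspirin with hydrogel over aspirin was 0.89 ± 0.48 (SE, with a 95% interval of -0.19 to 1.98, adjusted p = 0.485 by edgeR). Aspirin over control gave -1.01 ± 0.48 (-2.10 to 0.08, adjusted p = 0.753 by edgeR), and aspirin with hydrogel over control -0.12 ± 0.48 (-1.19 to 0.96). The lowest Vegfa value was that of Aspirin replicate 1, the library with the fewest fibre transcripts; without it the difference was 0.53 for hydrogel over aspirin libraries and -0.65 for aspirin over control. Without Control replicate 2 aspirin over control gave -0.61 and that of hydrogel libraries over controls 0.28. Leaving out Aspirin replicate 3 widened the gap, to -1.43 for aspirin over control (unadjusted p = 0.0195 and adjusted p = 0.307 by edgeR). It was then 1.315 for hydrogel over aspirin libraries (unadjusted p = 0.0275 and adjusted p = 0.19 by edgeR). The part of fibre content in the result was not tested.

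Vegfb, a ligand of Flt1 linked to fatty acid uptake by vessels (ENSMUSG00000024962, chromosome 19, 6982473 to 6987651, minus strand), showed the same low point in Aspirin replicate 1. Its levels were 55.8, 47.2 and 58.6 CPM in hydrogel libraries, 11.1, 43.0 and 54.5 CPM in aspirin libraries and 33.9, 54.7 and 54.8 CPM in controls. All 3 groups overlapped, and 7 of the 9 libraries lay between 43.0 and 58.6 CPM. The log2 fold changes were 0.57 ± 0.49 for aspirin with hydrogel over aspirin, -0.40 ± 0.49 for aspirin over control and 0.17 ± 0.48 for aspirin with hydrogel over control. Without Aspirin replicate 1 the first of these was 0.15 and the second 0.024. The last was -0.02 with library size alone and -0.02 in FPKM.

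Pgf, placental growth factor, a ligand of Flt1 but not of Kdr (ENSMUSG00000004791, chromosome 12, 85166635 to 85177790, minus strand), was lowest in the hydrogel libraries. It stood at 1.04, 1.57 and 1.54 CPM there, at 1.76, 2.08 and 1.86 CPM in aspirin libraries and at 2.03, 5.94 and 2.09 CPM in controls. Each hydrogel library was below each of the other 6 libraries, while the aspirin and control libraries overlapped. The log2 fold change of aspirin with hydrogel over control was -1.28 ± 0.48 (SE, with a 95% interval of -2.36 to -0.20, unadjusted p = 0.0255 and adjusted p = 0.987 by edgeR). Its size rested on Control replicate 2, without which it was -0.59 with an unadjusted p of 0.163 by edgeR, and without Hydrogel replicate 1 the unadjusted p was 0.0858 by edgeR. Aspirin with hydrogel over aspirin gave -0.46 ± 0.47 (-1.53 to 0.61), and aspirin over control -0.82 ± 0.47 (-1.89 to 0.25), which was -0.12 without Control replicate 2. In the test of any difference between the 3 groups Pgf had the smallest unadjusted p of the 10 genes, 0.0612, with an adjusted p of 0.659 by edgeR; 6.97% of all genes had an unadjusted p under 0.05 there and 0 of the 10 did.

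Vegfc, the ligand of Flt4 that drives lymphatic growth (ENSMUSG00000031520, chromosome 8, 54077606 to 54187096, plus strand), was low everywhere. It had 1.60, 2.48 and 0.934 CPM in hydrogel libraries, 2.14, 1.97 and 1.86 CPM in aspirin libraries and 3.38, 2.14 and 1.75 CPM in controls. The groups overlapped, and the lowest and highest values came from Hydrogel replicate 3 and Control replicate 1. Log2 fold changes were -0.54 ± 0.44 for aspirin with hydrogel over control, -0.29 ± 0.43 for aspirin over control and -0.25 ± 0.44 for aspirin with hydrogel over aspirin. The first was -0.22 without Control replicate 1, and the last 0.0057 without Hydrogel replicate 3.

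Angpt1, the angiopoietin that activates Tek and steadies vessels (ENSMUSG00000022309, chromosome 15, 42424723 to 42676977, minus strand), had 13.3, 12.8 and 15.9 CPM in hydrogel libraries. It had 8.61, 9.60 and 12.7 CPM in aspirin libraries and 15, 20.4 and 10.8 CPM in controls. Hydrogel libraries were above aspirin libraries, the closest pair being 12.79 and 12.75 CPM, and controls overlapped both. Aspirin with hydrogel over aspirin had a log2 fold change of 0.44 ± 0.28 (-0.18 to 1.06), which was 0.01 with library size alone. Aspirin over control gave -0.58 ± 0.28 (-1.20 to 0.04, unadjusted p = 0.065 and adjusted p = 0.753 by edgeR) and aspirin with hydrogel over control -0.14 ± 0.27. Without Control replicate 2 these were -0.33 and 0.097. Exons of Angpt1 share 737 bases with the antisense gene Gm17473, which had 61 counts over all libraries against 4853 for Angpt1. The sources used here do not say whether counting used strand.

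Angpt2, which competes with Angpt1 at Tek and is stored in activated endothelium (ENSMUSG00000031465, chromosome 8, 18690263 to 18741562, minus strand), was the only one of the 10 genes whose estimate for aspirin over control was above 0. Its levels were 5.18, 8.89 and 3.60 CPM in hydrogel libraries, 10.7, 7.94 and 7.72 CPM in aspirin libraries and 5.78, 8.40 and 6.75 CPM in controls. The groups overlapped. The log2 fold change was 0.33 ± 0.35 for aspirin over control, -0.24 ± 0.35 for aspirin with hydrogel over control and -0.58 ± 0.35 (-1.37 to 0.22) for aspirin with hydrogel over aspirin. Without Hydrogel replicate 3 the last of these was -0.35 and that of hydrogel libraries over controls -0.0045. Without Hydrogel replicate 2 they were -1.01 and -0.67, and without Aspirin replicate 1 the estimate for aspirin over control was 0.16.

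Fgf2, basic fibroblast growth factor, a mitogen of endothelial and satellite cells (ENSMUSG00000037225, chromosome 3, 37348346 to 37410108, plus strand), had the widest spread of the 10. It stood at 13.4, 10.2 and 12.05 CPM in hydrogel libraries, at 0.553, 6.79 and 8.80 CPM in aspirin libraries and at 0.832, 13.9 and 10.4 CPM in controls. Aspirin replicate 1 and Control replicate 1 stood apart with 29 and 45 counts, against 290 to 623 counts in the other 7 libraries. The 2 libraries were also lowest in summed fibre markers, with 22390 and 104370 CPM, and the part of fibre content in the level of Fgf2 was not tested. Hydrogel libraries lay above aspirin libraries, and the log2 fold change between them was 1.15 ± 1.01 (-1.14 to 3.43), or 0.61 without Aspirin replicate 1. Aspirin over control gave -0.64 ± 1.00, which was -0.10 without Aspirin replicate 1, -0.074 without Control replicate 2 and -1.18 without Control replicate 1. For aspirin with hydrogel over control it was 0.50 ± 1.00, or -0.03 without Control replicate 1 and 1.07 without Control replicate 2. Fgf2 exons share 640 bases with the antisense gene Nudt6, which had 1657 counts in all against 2906 for Fgf2, so reads of the 2 genes cannot be told apart there if strand was not used.

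Apln, the peptide apelin made by sprouting tip cells (ENSMUSG00000037010, X chromosome, 48025146 to 48034853, minus strand), varied nearly as widely. It had 6.80, 3.69 and 2.80 CPM in hydrogel libraries, 0.592, 2.16 and 8.52 CPM in aspirin libraries and 9.22, 8.73 and 4.97 CPM in controls. The aspirin group alone spanned the lowest level and one close to the highest, and all groups overlapped. Log2 fold changes were -0.79 ± 0.80 for aspirin with hydrogel over control, -1.03 ± 0.80 for aspirin over control and 0.24 ± 0.80 for aspirin with hydrogel over aspirin. Without Aspirin replicate 3 the second of these was -2.48, and without Aspirin replicate 1 it was -0.53. The third ranged from -0.26 without Aspirin replicate 1 to 1.68 without Aspirin replicate 3.

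The co-receptors varied little. Nrp1 was the steadiest of the 10 genes, with a root mean square deviation from its own mean of 0.27 on the log2 scale over the 9 libraries, against 1.66 for Fgf2. Nrp1, which presents Vegfa to Kdr (ENSMUSG00000025810, chromosome 8, 128358604 to 128503363, plus strand), had 41.0, 50.1 and 34.6 CPM in hydrogel libraries, 30.5, 45 and 33.6 CPM in aspirin libraries and 46.2, 50.3 and 32.3 CPM in controls. Its groups overlapped, and its log2 fold changes were 0.21 ± 0.25 for aspirin with hydrogel over aspirin, -0.24 ± 0.25 for aspirin over control and -0.03 ± 0.25 (-0.60 to 0.53) for aspirin with hydrogel over control. The first of these was -0.20 with library size alone. Nrp2, the partner of Flt4 on lymphatic and venous vessels (ENSMUSG00000025969, chromosome 1, 62703285 to 62818695, plus strand), had 35.8, 47.1 and 25.9 CPM in hydrogel libraries, 29.0, 32.2 and 49.7 CPM in aspirin libraries and 46.9, 53.7 and 45.1 CPM in controls. Only 1 hydrogel and 1 aspirin library reached the range of the controls. Its log2 fold changes were -0.42 ± 0.28 (-1.06 to 0.22) for aspirin with hydrogel over control, -0.40 ± 0.28 (-1.03 to 0.24) for aspirin over control and -0.03 ± 0.28 for aspirin with hydrogel over aspirin.

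**Figure D2:**
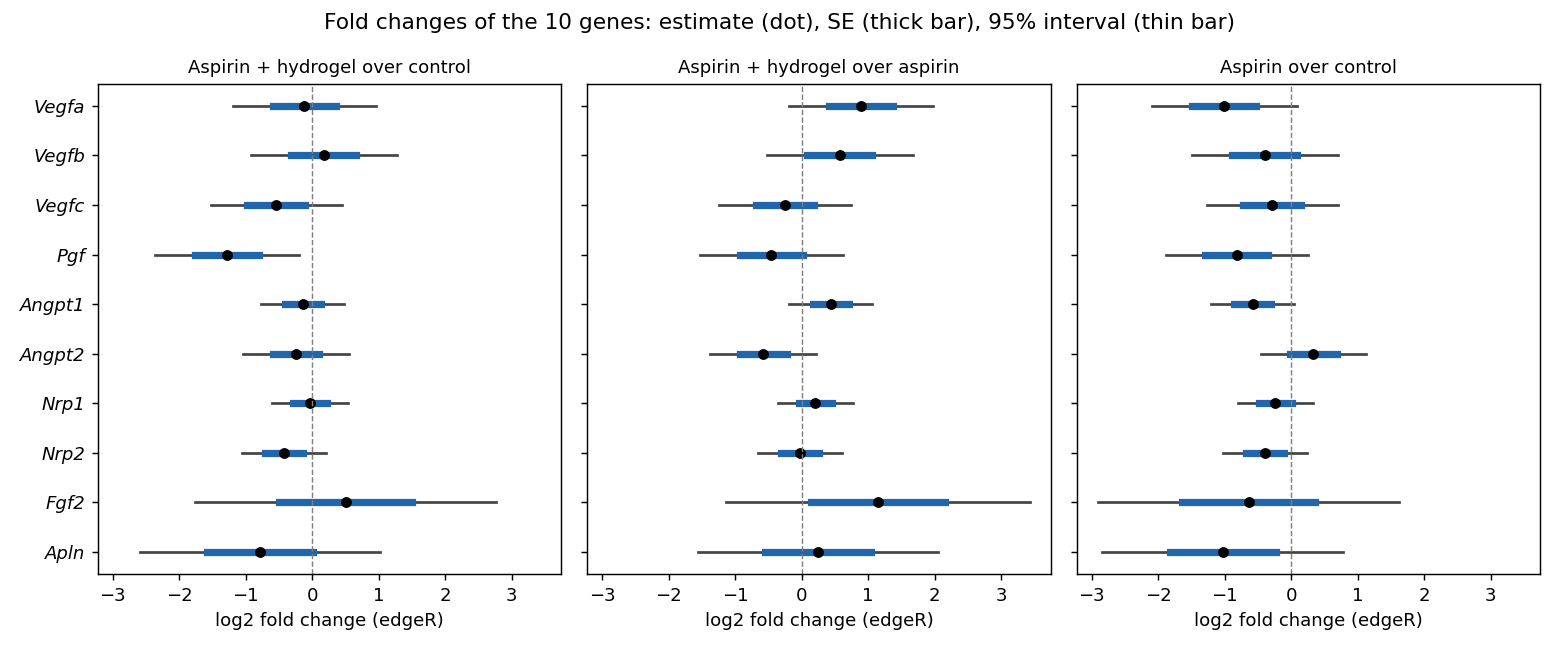
Log2 fold changes of the 10 genes by edgeR in the 3 comparisons, with dots for the estimate, thick bars for 1 SE and thin bars for the 95% interval. The interval of Pgf in aspirin with hydrogel over control, -2.36 to -0.20, is the only 1 of the 30 that does not include 0, before any adjustment.

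As a set, the 10 genes had estimates mostly below 0 against control in both treated groups. For aspirin over control the log2 fold change was below 0 in 9 of the 10, with a median of -0.49, while it was below 0 for 46.0% of all genes, with a median of 0.05. When 1 library was left out, 8 to 9 of the 10 were below 0. The median then ranged from -0.76 without Aspirin replicate 3 to -0.31 without Aspirin replicate 1. None of the 10 had its groups separated, meaning every library of one group above every library of the other, while 5.54% of all genes were separated higher and 5.44% lower. For aspirin with hydrogel over control it was below 0 in 8 of the 10, or 5 once Control replicate 2 was left out and 9 by library size alone, with a median of -0.19 that was -0.018 without Control replicate 2. All genes had a share of 52.9% and a median of -0.03. Only Pgf was separated, lower in hydrogel libraries, as were 6.30% of all genes, with 6.85% separated higher. For aspirin with hydrogel over aspirin 4 of the 10 were below 0, or 5 with library size alone and 2 without Hydrogel replicate 3, with a median of 0.22 against -0.05 for all genes and a share of 53.3%. That median was -0.097 with library size alone, -0.080 in FPKM and -0.038 without Aspirin replicate 1. Vegfa, Angpt1 and Fgf2 were separated and higher in hydrogel libraries, and Pgf was separated and lower, against 7.46% and 8.75% of all genes. In FPKM Vegfa and Angpt1 overlapped, while Fgf2 and Pgf were separated there too. With library size alone 2 of the 10 were separated. Without TMM the median over all genes was 0.27 in aspirin over control, -0.25 in aspirin with hydrogel over control and -0.51 in aspirin with hydrogel over aspirin.

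**Figure D3:**
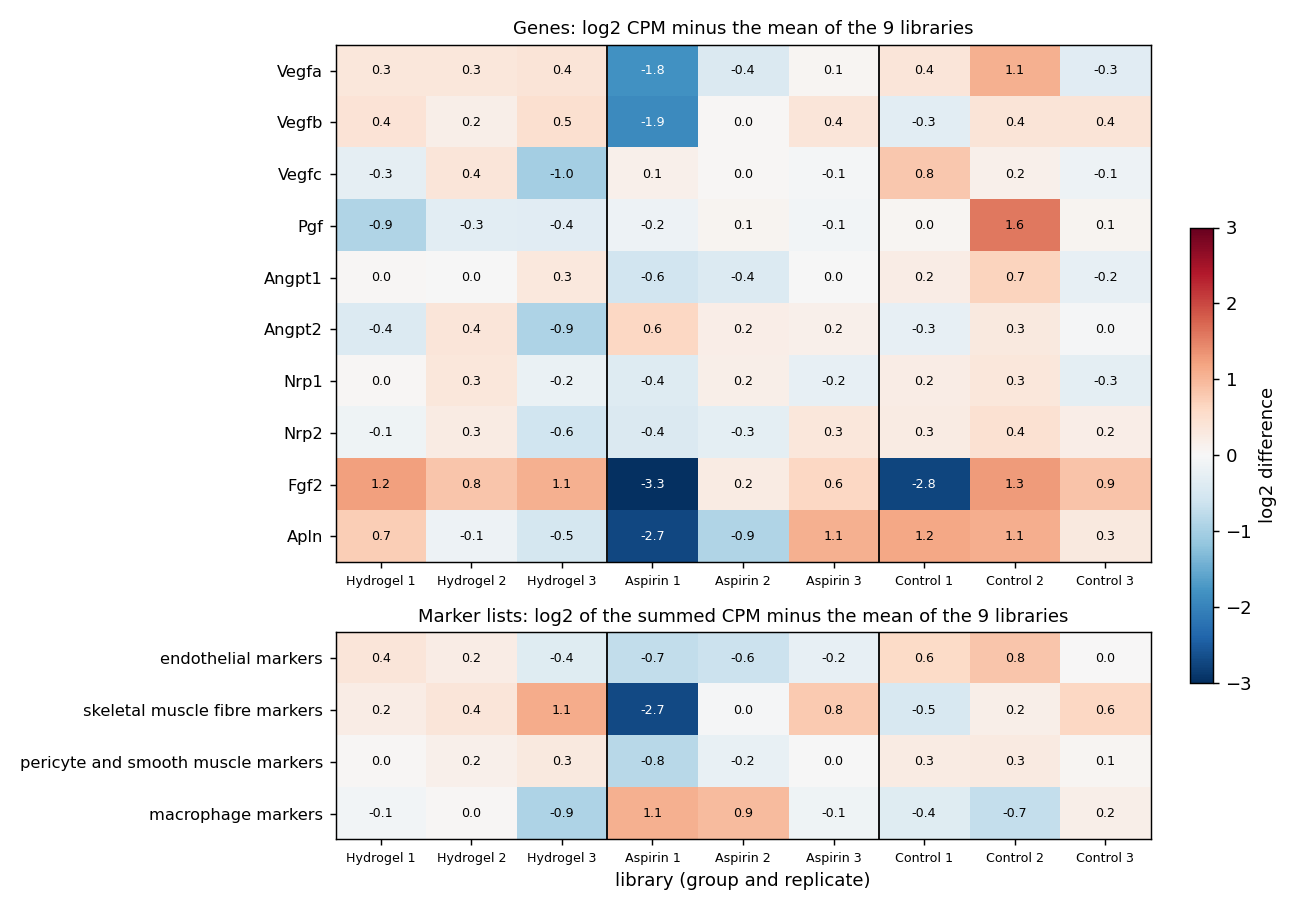
Log2 CPM of each gene minus its mean over the 9 libraries (top), and the same for the summed CPM of 4 marker lists (bottom), by library, with colours capped at 3 in either direction. Aspirin replicate 1 is lowest for Vegfa at -1.81, Vegfb at -1.91, Fgf2 at -3.32 and Apln at -2.74, and for fibre markers. Control replicate 2 is highest for Vegfa, Pgf, Angpt1, Nrp1, Nrp2 and Fgf2.

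The genes differed in which libraries set their pattern, as the map of centred levels shows. Likeness was measured as the root mean square difference of log2 CPM, each gene centred on its mean over the 9 libraries. Angpt1 and Nrp1 were the closest pair of the set at 0.32, followed by Nrp1 and Nrp2 at 0.34, and Vegfc and Fgf2 were farthest apart at 1.95. The measure is not scaled to a gene's own spread, so genes that vary little lie close together. Nrp1 deviated from its own mean by 0.27, which is less than its distance to Angpt1 or Nrp2. Vegfa was closer to Vegfb, at 0.45, than to Pgf or Vegfc. Outside the set, the genes nearest to Vegfa were Lrp4, a co-receptor of the neuromuscular junction, at 0.20 and Slc22a23 at 0.20, and those nearest to Vegfb were Art1, a muscle ADP-ribosyltransferase, at 0.07 and Tmem182 at 0.08. Vegfc lay nearest to Sema4a (0.15) and Lsp1 (0.19), Pgf to Irf2bp2 (0.27) and Mafk (0.28), and Angpt1 to Smurf1 (0.12) and Fbrsl1 (0.14). Angpt2 lay nearest to Gemin8 (0.19) and Ssh3 (0.20), Nrp1 to Palm (0.11) and Impdh1 (0.12), and Nrp2 to Kif5a (0.12) and Ube2h (0.16). The widely varying Fgf2 and Apln had no close match, with Tfcp2l1 and Phka1 at 0.70 and 0.72 from Fgf2 and Kcnh2 and Grb14 at 0.39 and 0.41 from Apln. These are descriptions over 9 libraries that share 3 groups.

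Ratios between genes of 1 library do not depend on library scaling. The FPKM of Pgf relative to Vegfa was 0.0126, 0.0192 and 0.0185 in hydrogel libraries, 0.0973, 0.0448 and 0.0274 in aspirin libraries and 0.0250, 0.0455 and 0.0419 in controls. The hydrogel libraries thus held the 3 lowest values of this ratio. Its mean log2 was -5.92 ± 0.34 in hydrogel, -4.34 ± 0.92 in aspirin and -4.79 ± 0.47 in control libraries (SD, n = 3 each). Angpt2 relative to Angpt1, often read as a balance between loosened and settled vessels, was 0.550, 0.980 and 0.320 in hydrogel libraries, 1.76, 1.17 and 0.853 in aspirin libraries and 0.543, 0.581 and 0.881 in controls. Only 2 libraries, both of the aspirin group, had more Angpt2 than Angpt1 per length, and the groups overlapped. The mean log2 was -0.85 ± 0.81 in hydrogel, 0.27 ± 0.52 in aspirin and -0.62 ± 0.38 in control libraries. Apln relative to its receptor Aplnr had a mean log2 of -3.15 ± 0.31 in hydrogel, -2.76 ± 0.91 in aspirin and -2.17 ± 0.36 in control libraries, and each hydrogel library was below each control. Nrp2 relative to Nrp1 had a mean log2 of -0.51 ± 0.17 in hydrogel, -0.28 ± 0.53 in aspirin and -0.08 ± 0.25 in control libraries, and again each hydrogel library was below each control. Vegfa relative to Kdr had a mean log2 of 2.63 ± 0.47 in hydrogel, 2.77 ± 0.62 in aspirin and 2.34 ± 0.44 in control libraries, which overlapped. Vegfc relative to Vegfa and Fgf2 relative to Fgfr1 overlapped too. With 3 against 3 libraries no exact permutation test can give a p under 0.10, so the ratios were not tested. How often ratios of other gene pairs fail to overlap was not counted. Pgf and Vegfa as single genes already differed in opposite directions between hydrogel and aspirin libraries, so their ratio adds no separate evidence there.

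**Figure D4:**
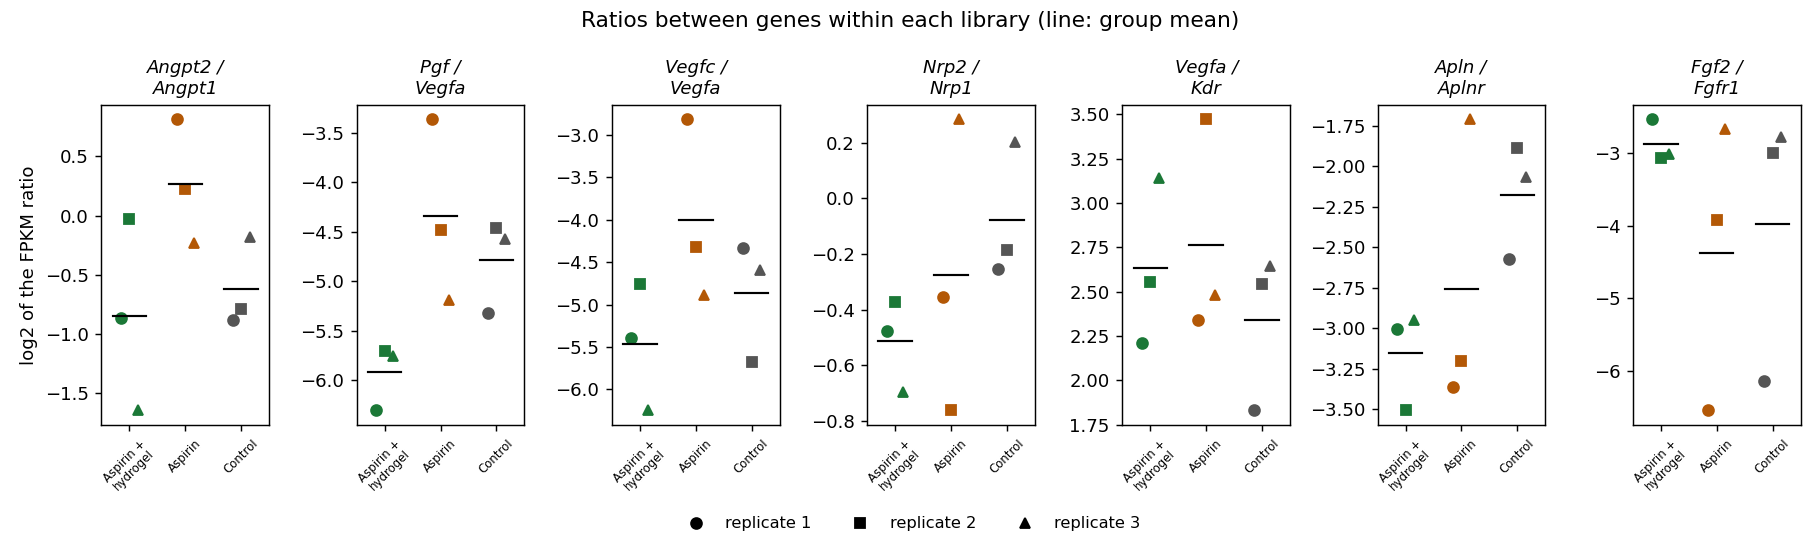
Log2 of the FPKM ratio of 7 gene pairs in each library, with lines at the group means. For Pgf over Vegfa the 3 hydrogel libraries lie between -6.31 and -5.70, below the other 6, and for Angpt2 over Angpt1 the mean is highest in the aspirin group at 0.27.

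Most receptors that read these signals had lower estimates in aspirin libraries than in controls. Of 15 receptors and plexins that bind the 10 proteins or act with them, 13 had a log2 fold change below 0 in aspirin over control (12 with library size alone), with a median of -0.95. That median ranged from -0.99 to -0.57 when 1 library was left out, and was -0.595 in FPKM. In this comparison 4 of the 15 were separated and lower, against 5.44% of all genes. In aspirin with hydrogel over aspirin 4 of the 15 were below 0, or 5 with library size alone, and the median was 0.51, or 0.14 with library size alone and 0.25 without Aspirin replicate 1. In aspirin with hydrogel over control 10 were below 0, or 14 with library size alone, and the median was -0.25, or -0.096 without Control replicate 2. None passed the adjusted threshold in edgeR.

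Flt1, the receptor of Vegfa, Vegfb and Pgf that also acts as a decoy, had 35.4, 41.6 and 44.7 CPM in hydrogel libraries, 13.7, 19.0 and 28.4 CPM in aspirin libraries and 32.1, 49.4 and 40.0 CPM in controls. Every aspirin library was below every other library. The log2 fold change was -0.99 ± 0.29 for aspirin over control (unadjusted p = 0.00764, adjusted p = 0.753 by edgeR) and 0.99 ± 0.29 for aspirin with hydrogel over aspirin (unadjusted p = 0.00755, adjusted p = 0.453 by edgeR). For aspirin with hydrogel over control it was 0.00 ± 0.29, with an interval of -0.65 to 0.65, and -0.21 with library size alone. Tie1, the orphan partner of Tek, averaged 40.5 ± 8.54 CPM in hydrogel, 21.7 ± 5.47 CPM in aspirin and 49.4 ± 13 CPM in control libraries (SD, n = 3 each). After TMM scaling its aspirin libraries were the 3 lowest. Before scaling, the lowest hydrogel library had 927 counts, within the 879 to 965 counts of the aspirin libraries. The fold change of Tie1 for aspirin over control was -1.19 ± 0.28 (log2, adjusted p = 0.747 by edgeR). DESeq2, the single alternative to call it, gave an adjusted p of 0.0308.

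Kdr, the main signalling receptor of Vegfa, averaged 41.1 ± 11.9 CPM in hydrogel, 20.04 ± 14.1 CPM in aspirin and 54.6 ± 26.0 CPM in control libraries, which overlapped. Flt4, the receptor of Vegfc, had log2 fold changes of -1.01 ± 0.32 for aspirin over control and -0.46 ± 0.32 for aspirin with hydrogel over control, and controls were separated from both treated groups. Aplnr averaged 46.3 ± 19.4 CPM in hydrogel, 21.0 ± 12.9 CPM in aspirin and 42.3 ± 20.3 CPM in control libraries, with overlap. Tek had fold changes of -0.41 ± 0.32 for aspirin over control and 0.53 ± 0.32 for aspirin with hydrogel over aspirin, and Fgfr1 -0.21 ± 0.36 and 0.32 ± 0.36 (log2). With library size alone Fgfr1 gave 0.02 and -0.11.

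**Figure D5:**
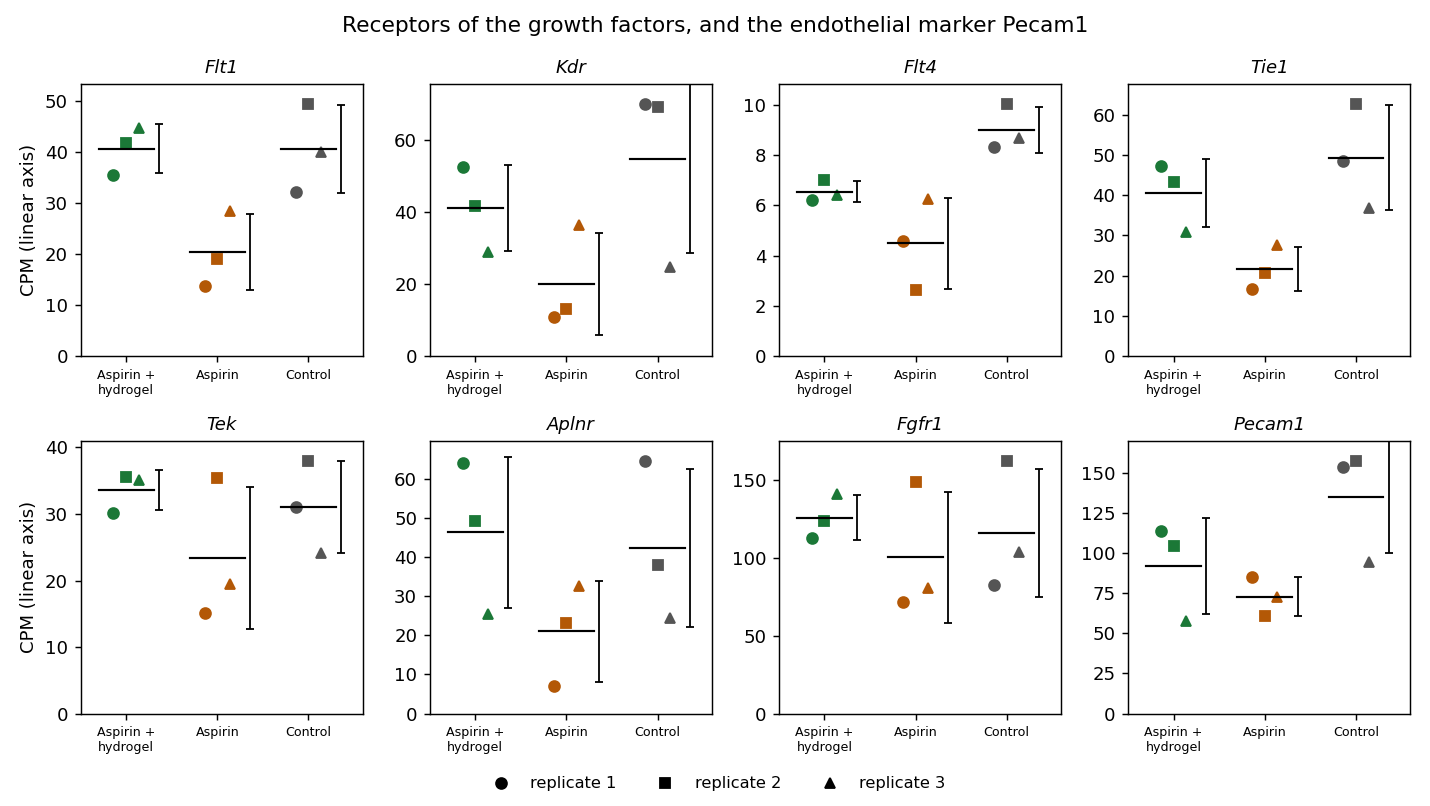
CPM of 7 receptors and of the endothelial marker Pecam1 in each library on linear axes, with hydrogel libraries left, aspirin libraries in the middle and controls right, lines for group means and bars for 1 SD (n = 3). The aspirin libraries of Flt1 lie between 13.7 and 28.4 CPM, below all others.

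Markers of endothelial cells differed in the same direction as the receptors, and Kdr and Tie1 are themselves among the 12 endothelial markers. The summed level of these markers was 342 to 568 CPM in hydrogel libraries, 264 to 370 CPM in aspirin libraries and 441 to 775 CPM in controls. All 12 were below 0 in aspirin over control (median log2 fold change -1.03), 11 in aspirin with hydrogel over control (-0.38), and 11 above 0 in aspirin with hydrogel over aspirin (0.39). The last count and median did not hold without TMM: 6 of the 12 were below 0 with library size alone (median -0.0045), and 7 in FPKM (median -0.015). Without Control replicate 2 the median for aspirin with hydrogel over control was -0.12. Cdh5, the cadherin of endothelial junctions, averaged 126 ± 23.7 CPM in hydrogel, 55.6 ± 22.2 CPM in aspirin and 157 ± 49.8 CPM in control libraries. For aspirin over control its adjusted p was 0.753 by edgeR and 0.0225 by DESeq2, again the single alternative past the threshold. Pecam1, an adhesion molecule of the same junctions, averaged 92.1 ± 30.2 CPM in hydrogel, 73.0 ± 12.02 CPM in aspirin and 135 ± 35.1 CPM in control libraries. The part of endothelial content in the receptor levels was not tested. Markers of pericytes and smooth muscle summed to 708 to 852 CPM in hydrogel, 388 to 686 CPM in aspirin and 718 to 832 CPM in control libraries. Despite the similar sums, 9 of these 10 were below 0 in aspirin with hydrogel over control (median -0.36). In aspirin over control 8 were below 0 (-0.40), and in aspirin with hydrogel over aspirin 4 (0.47). With library size alone the counts were 9, 8 and 5 in that order. Macrophage markers, by contrast, summed to 381 to 739 CPM in hydrogel, 652 to 1499 CPM in aspirin and 440 to 807 CPM in control libraries, with all 10 above 0 in aspirin over control and all 10 below 0 in aspirin with hydrogel over aspirin. Adipocyte markers summed to 662 to 3361 CPM in hydrogel, 660 to 2014 CPM in aspirin and 2679 to 4179 CPM in control libraries. All 7 were below 0 in aspirin over control (median -1.52), with 5 separated and lower, against 5.44% of all genes. In aspirin with hydrogel over control all 7 were again below 0 (-0.86). They were above 0 in aspirin with hydrogel over aspirin (0.66, or 6 of the 7 and 0.40 with library size alone). Neutrophil markers summed to 10.98 to 26.0 CPM in hydrogel, 32 to 366 CPM in aspirin and 17.0 to 157 CPM in control libraries. Of the 7 tested, 6 (7 with library size alone) were above 0 in aspirin over control (median 1.77). All 7 were below 0 in aspirin with hydrogel over control (-2.05) and over aspirin (-3.66). In the last comparison 3 were separated and lower, against 8.75% of all genes. Fibroblast and fibro-adipogenic markers summed to 5520 to 7592 CPM in hydrogel, 5490 to 11417 CPM in aspirin and 6864 to 10528 CPM in control libraries. Of these 10, 3 were below 0 in aspirin over control, 8 in aspirin with hydrogel over control and 8 in aspirin with hydrogel over aspirin, or 1, 8 and 9 with library size alone. Lymphatic endothelial markers summed to 33.8 to 92.3 CPM in hydrogel, 54.2 to 175 CPM in aspirin and 55.7 to 110 CPM in control libraries. Of these 6, 4 were below 0 in aspirin over control, 5 in aspirin with hydrogel over control and 4 in aspirin with hydrogel over aspirin, or 1, 6 and 5 with library size alone. None of these markers passed the adjusted threshold in edgeR, and the part of these cell types in the levels of the 10 genes was not tested.

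Transcripts of the oxygen-sensing factors upstream of Vegfa differed in direction from each other. Hif1a, the stress-induced subunit, averaged 43.4 ± 7.38 CPM in hydrogel, 73.7 ± 28.7 CPM in aspirin and 44.0 ± 6.84 CPM in control libraries. Epas1, the subunit abundant in endothelium, averaged 126 ± 7.94 CPM in hydrogel, 77.9 ± 21.2 CPM in aspirin and 122 ± 18.5 CPM in control libraries. Its aspirin libraries were the 3 lowest after TMM scaling. Log2 fold changes for aspirin over control were 0.75 ± 0.31 for Hif1a and -0.65 ± 0.25 for Epas1, both with an adjusted p of 0.753 by edgeR. Of 10 regulators of oxygen and energy sensing, 8 were below 0 in aspirin over control, and 8 above 0 in aspirin with hydrogel over aspirin, or 6 and 5 with library size alone. Of 14 hypoxia-responsive genes, 8 were below 0 in aspirin over control, 7 in aspirin with hydrogel over control and 7 in aspirin with hydrogel over aspirin, or 6, 10 and 10 with library size alone. Angptl4, a lipase inhibitor of that list, averaged 17.5 ± 7.81 CPM in hydrogel, 46.1 ± 25.04 CPM in aspirin and 62.2 ± 29.0 CPM in control libraries. Pdk1, the kinase that limits pyruvate entry into mitochondria, averaged 65.7 ± 7.26 CPM in hydrogel, 45.4 ± 13.7 CPM in aspirin and 66.8 ± 2.91 CPM in control libraries.

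Other ligands of these receptors went both ways. Fgf1, acidic FGF, averaged 15.8 ± 1.71 CPM in hydrogel, 8.17 ± 3.43 CPM in aspirin and 18.3 ± 1.45 CPM in control libraries. Its aspirin libraries were the 3 lowest after TMM scaling. Vegfd, a ligand of Flt4, averaged 12.1 ± 2.63 CPM in hydrogel, 21.1 ± 9.16 CPM in aspirin and 11.9 ± 2.58 CPM in control libraries, with the aspirin libraries the 3 highest. Of the 7 genes tested in that list, 3 were below 0 in aspirin over control, 4 in aspirin with hydrogel over control and 3 in aspirin with hydrogel over aspirin, or 1, 6 and 5 with library size alone. Apela had too few counts to be tested. Thbs2, a thrombospondin that restrains vessel growth, averaged 41.5 ± 8.42 CPM in hydrogel, 89.5 ± 17.1 CPM in aspirin and 51.6 ± 5.35 CPM in control libraries. Thbs1, its relative, averaged 17.1 ± 4.38 CPM in hydrogel, 55.3 ± 36.6 CPM in aspirin and 35.97 ± 6.72 CPM in control libraries, and hydrogel libraries were below all others. Among 10 inhibitors of vessel growth 6 were below 0 in aspirin over control, 10 in aspirin with hydrogel over control and 7 in aspirin with hydrogel over aspirin. Unc5b, a netrin receptor of tip cells, averaged 6.23 ± 2.03 CPM in hydrogel, 4.46 ± 1.10 CPM in aspirin and 11.3 ± 2.41 CPM in control libraries. Robo4, a guidance receptor of endothelium, averaged 14.2 ± 3.93 CPM in hydrogel, 6.99 ± 1.97 CPM in aspirin and 19.9 ± 11.8 CPM in control libraries. Of 10 sprouting and tip cell genes, 7 were below 0 in aspirin over control, 9 in aspirin with hydrogel over control and 4 in aspirin with hydrogel over aspirin, or 7, 10 and 6 with library size alone. The adjusted p-values of the genes named in this paragraph were 0.453 to 0.753 by edgeR for aspirin over control and for aspirin with hydrogel over aspirin. The exception was Thbs1 in aspirin over control, at 0.789. Within that range, Unc5b in aspirin with hydrogel over aspirin was at 0.543.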

How the data were processed

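Per the labels' protocols, leg muscle RNA was made into libraries by a SMARTER kit for mRNA. The count table the authors deposited holds whole, unscaled numbers by Ensembl gene, and their FPKM table covers the same rows. The submitters' processing notes name the build mm10 and no more, so the aligner, the counter, the annotation and the handling of strand remain not given in the sources used. Groups follow the treatment labels, with 3 mice each. A sample code of unstated meaning is shared by no 2 groups, so a batch it may mark cannot be told apart from treatment. All pairs of libraries differed beyond sampling noise (chi-square of at least 78.2 per degree of freedom).

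Tests were made with edgeR's quasi-likelihood method (4.0.16, R 4.3.3) on the deposited counts of all 9 libraries, with only group in the model, TMM scaling, filterByExpr with a minimum count of 10, and Benjamini-Hochberg adjustment over 18259 genes at 0.05. "Separated" means that all libraries of one group lay above all of the other. The common biological coefficient of variation was 0.503. On counts simulated for aspirin against control (17890 genes tested, 200 of them changed 8-fold), the fit recovered 78% of the changed genes with 5 false calls. All estimates for the 10 genes were smaller than 8-fold, and no smaller change was simulated, so recovery at their size is not known. In 10432 well-covered genes, 99.21% of ratios of counts to FPKM lay within 1% of a constant per gene. A count of 0 allows up to 0.0554 to 0.100 CPM, depending on the library (3 counts, counting error only). Alternatives were RLE factors, library size alone, no filter, DESeq2 1.42.0, limma 3.58.1 on log2(FPKM + 0.1), the replicate number as a block, and leaving out each library. Same-numbered libraries did not deviate together throughout, so the numbers were not taken as pairs. Genes named outside the set are receptors, oxygen regulators and endothelial markers chosen by role, the 2 genes of smallest unadjusted p in the test of any difference in each pathway list, and the 2 nearest genes by pattern averaging at least 1 CPM. For other cell type lists only sums, counts and medians are given. The genes and lists were chosen with earlier results of these data known.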

Additional observations from a re-analysis of the deposited data

How the results depend on the processing

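No member of the set passed the adjusted threshold under any alternative, and of 360 alternative values for the 30 fold changes of the 10 genes 341 kept their sign and 19 did not. The number of all genes called by DESeq2 was 102 in aspirin against control, 18 in aspirin with hydrogel against control, 156 in aspirin with hydrogel against aspirin and 151 for any difference, against 0 in edgeR. The replicate block gave 1 gene in aspirin with hydrogel against aspirin and 0 in the other comparisons; same-numbered libraries correlated from -0.44 to 0.62 in their deviations from group means, so the block is no pairing by design. Leaving out 1 library gave 0 to 2 genes in aspirin with hydrogel against aspirin and 0 to 1 for any difference, 5 to 9 members below 0 in aspirin with hydrogel against control, and 2 to 5 in aspirin with hydrogel against aspirin. Log2 fold changes that reversed are given here first with library size alone and then in limma on FPKM. In aspirin with hydrogel against control these were -0.024 and -0.024 for Vegfb, -0.21 and -0.20 for Flt1, -0.12 and -0.087 for Tek, -0.11 and -0.081 for Aplnr, -0.090 and -0.056 for Fgfr1, and -0.18 and -0.17 for Epas1. In aspirin with hydrogel against aspirin they were -0.20 and -0.20 for Nrp1, -0.11 and -0.016 for Fgfr1, and -0.11 and -0.12 for Pecam1. Fgfr1 in aspirin against control was 0.021 with library size alone, and Flt1 in aspirin with hydrogel against control was -0.0068 without the filter. When each library was left out in turn, values that reversed ranged as follows. In aspirin against control, Fgfr1 ranged from -0.61 to 0.10, Vegfc from -0.47 to 0.028 and Vegfb from -0.82 to 0.024. In aspirin with hydrogel against control, Vegfa ranged from -0.39 to 0.28, Vegfb from -0.022 to 0.29, Angpt1 from -0.34 to 0.097, Nrp1 from -0.21 to 0.074 and Fgf2 from -0.033 to 1.07. In the same comparison Flt1 ranged from -0.14 to 0.16, Tek from -0.035 to 0.27, Aplnr from -0.17 to 0.57, Fgfr1 from -0.078 to 0.42, Epas1 from -0.042 to 0.16 and Hif1a from -0.15 to 0.073. In aspirin with hydrogel against aspirin, Apln ranged from -0.26 to 1.68, Nrp2 from -0.27 to 0.22 and Vegfc from -0.66 to 0.0057. The cause was not tested. Pgf and Vegfc rest on 28 to 266 counts per library.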
